A study of Mus musculus with 11 samples.

Results

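miR-293 is a microRNA hairpin of the miR-290 to miR-295 cluster, and both of its mature arms, mmu-miR-293-5p and mmu-miR-293-3p, were followed in mouse embryonic stem cells that differed in DGCR8, through libraries of their small RNA. The 2 arms were taken by name from a table of 1966 mature miRNAs. The hairpin was selected on the counts of induced E518K and induced wild type, in which its arms were far lower with E518K, so the levels in that comparison are a description and carry no test. All 11 libraries came from the embryonic stem cell line NBA1-19349 (Novus Biochemicals), grown without feeder cells in medium with LIF. Induced E518K cells (clones 8, 13 and 15) carried the vector pSB ET iE-FlagDGCR8-E518K, delivered together with pCMV(CAT)-SB100X, and received doxycycline at 300 ng/mL for 48 h. Untreated E518K cells were clone 8 without doxycycline, in 1 library. Knockout (KO) cells were DGCR8 -/-, not transfected, and received the same doxycycline. The 3 KO libraries all carry the label of clone 261, although the series' design text speaks of independent clones. Induced wild-type cells (clones 10, 12 and 16) carried the vector pSB ET iE-FlagDGCR8-wt and received the same doxycycline. Untreated wild-type cells were clone 10 without doxycycline, also in 1 library, and the untreated libraries were made to see how far the vectors leak. The labels give the genotypes of the vector lines as DGCR8 E518K/E518K and DGCR8 wt/wt, and do not say whether these name the vector or the cells' own gene.

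DGCR8 binds RNA and guides the nuclease Drosha. Together they form the microprocessor, which cuts miRNA hairpins out of long primary transcripts, after which Dicer trims the hairpin and 1 of its arms is loaded into an Argonaute protein. E518K changes a glutamate in a double-stranded RNA-binding domain of DGCR8, and the change recurs in Wilms tumours. The miR-290 to miR-295 hairpins are cut from a shared primary transcript, are abundant in mouse embryonic stem cells, fall when these cells differentiate, and are known for supporting rapid cell division. Because the hairpins share a transcript, the ratio of miR-293 to a neighbour within a library does not depend on how much of that transcript was made or on how libraries are scaled.

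The mature sequences show which neighbours miR-293 resembles. They are taken from RefSeq (GRCm38.p6), 5′ to 3′, with the seed, bases 2 to 8, in capitals. miR-293-5p has the seed of miR-292a-5p and miR-290a-5p, and these 3 are the only names with that seed among 1679 in the RefSeq table.
miR-293-5p: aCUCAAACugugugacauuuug
miR-292a-5p: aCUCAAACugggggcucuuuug
miR-290a-5p: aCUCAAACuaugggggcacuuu
On the other arm, the seed of miR-293-3p belongs to no other name in the table. The table has no entry for miR-292a-3p, so that neighbour could not be compared. miR-293-3p is set here beside the closest name in the table, miR-290a-3p. Below them stands the seed that the arms of miR-291a, miR-294 and miR-295 share with miR-302b-3p and miR-302d-3p.
miR-293-3p: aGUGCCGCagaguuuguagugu
miR-290a-3p: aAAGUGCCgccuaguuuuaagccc
miR-291a-3p: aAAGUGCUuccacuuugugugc
miR-294-3p: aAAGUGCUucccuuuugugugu
miR-295-3p: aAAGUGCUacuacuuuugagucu
miR-293-5p matched miR-292a-5p at 17 of 22 bases, and miR-293-3p matched miR-290a-3p at 15 of 22 bases when shifted by 2 bases. Counts of 2 miRNAs were taken as the same where they differed by at most 2% summed over all libraries. By that measure no other miRNA held the counts of either arm of miR-293, but 4 pairs in the cluster held the same counts, each an arm of miR-290a or miR-292a with an arm of the antisense hairpin miR-290b or miR-292b, so the neighbours' values of those pairs are uncertain.

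The Mir293 hairpin lies at chr7:3220343-3220422 on the plus strand of GRCm38.p6, with its 5p arm at chr7:3220356-3220377 and its 3p arm at chr7:3220390-3220411. It is annotated as the single exon of its own gene, and on the opposite strand it lies within a UTR exon of Nlrp12 (chr7:3218784-3222475). It is 80 bases long with 41.2% GC, below the median of 51.7% over 1005 mouse hairpins in the RefSeq table. RNAfold gave it a minimum free energy of -0.365 kcal/mol per base, less stable than the median of -0.406, while the neighbours Mir290a, Mir292, Mir291b, Mir294 and Mir295 ran from -0.386 (Mir294) to -0.502 (Mir292). Its terminal loop of 11 unpaired bases was longer than theirs, which had 4 to 9. UGU, searched on the strand of the hairpin, occurred in the terminal loop of Mir293 and of Mir295 but not in those of the other 4 neighbours with a hairpin in the table, and in 8.96% of all 1005 hairpins. UGU in the loop is known as a feature that DGCR8 can bind. Its part in the levels below was not tested.

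The libraries held 1050564 to 1797240 miRNA counts in induced E518K, 264507 in untreated E518K, 166676 to 208846 in KO, 3394216 to 6128734 in induced wild type and 1421247 in untreated wild type. Of the counts from 1 to 40, 90.3% were even, as they would be if most small RNAs had been counted 2 times, but in KO miR-293-5p had 39 and 17 counts in 2 libraries and miR-293-3p 21 in 1, which are odd, so doubling does not hold for every read of these arms. A floor of detection was set at 6 counts per library, which is 12.8 to 18.3 CPM in KO. CPM are counts relative to library size, here scaled between libraries by TMM. The 7 stem cell marker miRNAs summed to 24308 to 28470 CPM in induced E518K, 1910 in untreated E518K, 81.0 to 170.9 in KO, 25112 to 39978 in induced wild type and 29085 in untreated wild type. They include the cluster arms miR-291a-3p, miR-294-3p and miR-295-3p, which averaged 5233, 6191 and 19064 CPM in induced wild type. The sum is therefore no check apart from the cluster. In KO, 3 or 4 of the 7 were at 0 (miR-302a-3p, miR-302b-3p, miR-302d-3p and, in 2 libraries, miR-367-3p), and since these miRNAs need DGCR8 themselves, they cannot check the cell type there. The same limit holds for untreated E518K. Of 13 markers of other cell types, miR-223-3p was at 0 in all 11 libraries. The list summed to 2188 to 3394 CPM in induced E518K, 6481 in untreated E518K and 4628 to 7414 in KO. In wild type it summed to 4249 to 5888 CPM with doxycycline and 8836 CPM without. Some other members were well above 0. In induced E518K, KO and induced wild type, miR-143-3p averaged 532, 4578 and 3027 CPM. In the same order miR-199a-3p averaged 1074, 1058 and 760 CPM, and miR-9-5p 940, 38.7 and 748 CPM. A list of 13 miRNAs made without DGCR8, taken from an earlier analysis of these data, summed to 54721 to 88899 CPM in KO against 1944 to 2067 in induced wild type, and to 134399 in untreated E518K. Because the list came from these data, its sums are a description and may follow from that choice. In such bulk libraries fewer cells with a miRNA and less of it per cell cannot be told apart.

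The level of mmu-miR-293-5p differed between all 5 groups. It reached 11621, 7965 and 11977 CPM in induced E518K clones 8, 13 and 15, and 512 CPM (161 counts) in untreated E518K clone 8. In KO replicates 1, 2 and 3 it was at 83.2, 51.1 and 158.7 CPM, which rest on 39, 17 and 52 counts. Induced wild-type clones 10, 12 and 16 held 207923, 254804 and 127700 CPM, and untreated wild-type clone 10 held 52010 CPM. The groups did not overlap, and their order was KO, untreated E518K, induced E518K, untreated wild type and induced wild type. Each untreated group is 1 library, so its spread is unknown. The induced groups are those on which miR-293 was selected. How many of the 730 miRNAs tested keep this order was not counted, but 58.4% of them fell from induced wild type to KO.

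The groups kept the same order in mmu-miR-293-3p. It reached 4666, 3270 and 5555 CPM in induced E518K clones 8, 13 and 15, and 184 CPM (58 counts) in untreated E518K. KO replicates 1, 2 and 3 had 44.8, 6.01 and 42.7 CPM, from 21, 2 and 14 counts, so that replicate 2 lay below the floor of 6 counts. Induced wild-type clones 10, 12 and 16 had 51932, 60952 and 45468 CPM, and untreated wild type 26957 CPM. Both arms together made up 1.30% ± 0.0798 of all miRNA counts in induced E518K, 0.0264% ± 0.0139 in KO and 16.1% ± 0.752 in induced wild type (SD, n = 3 each). They were 0.0828% of the counts in untreated E518K and 3.81% in untreated wild type.

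**Figure D1:**
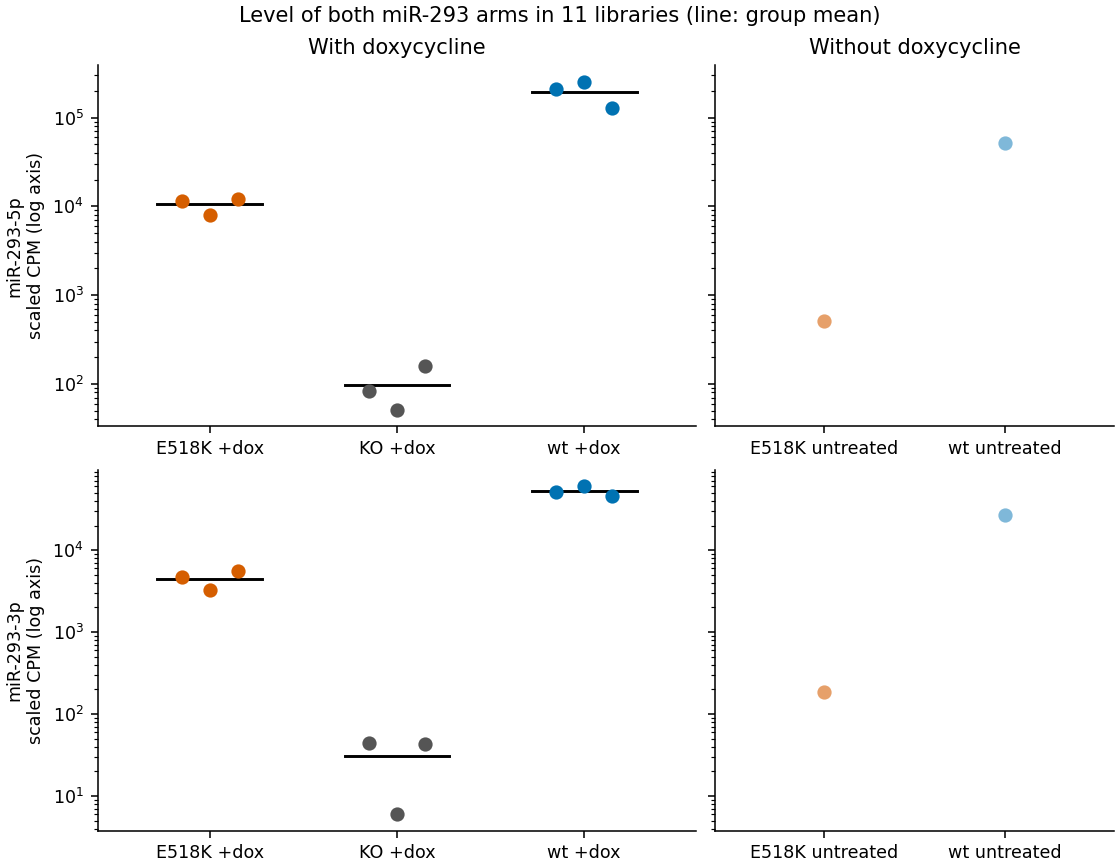
Level of miR-293-5p (top) and miR-293-3p (bottom) in each of the 11 libraries, in TMM-scaled CPM on a log axis, with the induced groups and KO on the left and the groups without doxycycline on the right. Points are libraries and lines are group means. Every induced E518K library lies above every KO library and below every wild-type library, and the KO points of miR-293-3p reach down to 6.01 CPM, from 2 counts.

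In induced E518K, both arms of miR-293 stood further below induced wild type than any arm of its neighbours. miR-293-5p averaged 10521 ± 2221 CPM in induced E518K and 196809 ± 64277 CPM in induced wild type, a fitted log2 difference of -4.23 ± 0.46 (SE). miR-293-3p averaged 4497 ± 1152 CPM in induced E518K and 52784 ± 7777 CPM in induced wild type (SD, n = 3 each), a difference of -3.55 ± 0.43. Ranked among 730 miRNAs tested, these were the 88th and the 129th lowest. Of 16 neighbour arms, the lowest was miR-290a-5p at -1.26, and the highest was miR-294-5p at 0.57. The median of the 16 was -0.37, beside -0.14 over all miRNAs tested. In that fit 7 of the 16 were called lower and none higher, where 35.3% of all miRNAs tested were called lower. With arms of the same reads merged, 2 of 12 were called lower. The abundant miR-292a-5p, which has the same seed as miR-293-5p, was at -0.97, and the next hairpins downstream had miR-294-3p at 0.20 and miR-295-3p at -0.35. Without wild-type clone 16 the difference of miR-293-3p was -2.89. Scaling by the list of miRNAs made without DGCR8 gave -6.99 for miR-293-5p and -6.32 for miR-293-3p, and shifted the median of the neighbours to -3.13. The neighbours' calls moved with the scaling, with none lower by total counts, 16 lower by the list, and 2 higher and none lower without wild-type clone 16.

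Set against each neighbour within a library, miR-293 was highest in the induced wild-type clones. Counts of both miR-293 arms over both miR-292a arms, with 1 count added to each, gave 0.111, 0.121 and 0.0848 in induced E518K clones 8, 13 and 15. The same ratio was 0.0775 in untreated E518K, 0.319, 0.132 and 0.139 in KO, 0.783, 0.849 and 1.04 in induced wild type, and 0.144 in untreated wild type. Thus miR-293 came close to miR-292a in induced wild-type clones alone, and the untreated library of wild-type clone 10 lay inside the KO range. For miR-295 the ratio was 1.07, 0.775 and 1.08 in induced E518K, 0.870 in untreated E518K, 1.27, 0.833 and 1.63 in KO, 17.3, 12.9 and 9.22 in induced wild type, and 7.57 in untreated wild type. Here untreated wild type was nearer to induced wild type than to E518K or KO, so its place depended on the neighbour it was set against. For miR-294 the ratio spanned 1.31 to 2.53 in induced E518K, was 0.884 in untreated E518K, spanned 1.67 to 10.2 in KO and 25.2 to 54.4 in induced wild type, and was 12.1 in untreated wild type. For miR-291a it was 1.37 to 2.27 in induced E518K, against 22.0 to 38.5 in induced wild type. Induced E518K and KO overlapped in the ratios to miR-290a, miR-294 and miR-295, and differed without overlap in those to miR-291a, miR-292a and miR-291b, the last being higher in E518K. Most of these KO ratios rest on few counts of the neighbour, and both arms of miR-290a were at 0 in KO replicate 2.

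**Figure D2:**
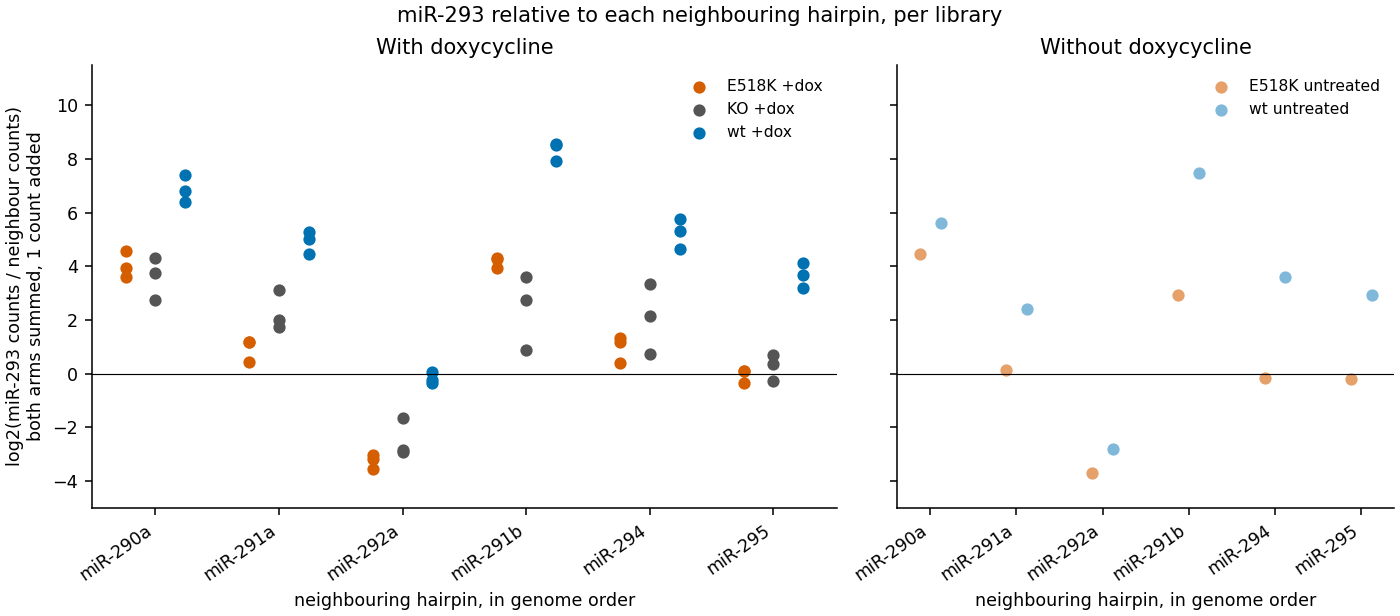
Log2 ratio of summed miR-293 counts to the summed counts of each neighbouring hairpin, per library, with 1 count added to each sum, in induced E518K, KO and induced wild type (left) and in the untreated libraries (right). The 3 induced wild-type points are the highest for each of the 6 hairpins, and for miR-292a the untreated wild-type point lies with the E518K and KO points, at -2.80 against -0.35 to 0.05 in induced wild type.

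In KO both arms of miR-293 fell to a small fraction of their level in induced wild type, with miR-293-5p at 17 to 52 counts, above the floor in each library, and miR-293-3p at 2 to 21 counts. KO libraries averaged 97.7 ± 55.3 CPM of miR-293-5p and induced wild type 196809 ± 64277 CPM (SD, n = 3 each), a log2 change of -10.98 ± 0.62 (edgeR quasi-likelihood test, adjusted p = 6.21e-56). miR-293-3p averaged 31.2 ± 21.8 CPM in KO and 52784 ± 7777 CPM in induced wild type, and changed by -10.69 ± 0.61 (edgeR, adjusted p = 6.75e-56). These SE do not cover the choice of scaling. Over other scalings and fits the change ran from -16.20 to -9.31 for miR-293-5p and from -15.82 to -9.05 for miR-293-3p. All 16 neighbour arms fell as well, where 58.4% of the miRNAs tested fell. Among neighbours with counts in KO the changes ran from -3.43 (miR-295-5p) to -10.19 (the antisense miR-292b-5p). miR-292a-3p, which holds the same reads as miR-292b-5p, was at -10.18, and miR-294-5p was at 0 in all KO libraries. The neighbours' median was -8.05, or -7.89 with miR-294-5p at its bound, beside -3.54 over all miRNAs tested. Scaling by the list of miRNAs made without DGCR8 put the neighbours' median at -13.24. The wild-type libraries are those that also chose miR-293, and since KO cells were not transfected, loss of DGCR8 cannot be told apart from the lack of a vector or from the clone.

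Relative to its neighbours, miR-293 stood lower in KO libraries than in those of induced wild type for each of the 6 neighbours. Its share of the cluster's counts was 7.55% ± 3.51 in KO and 29.2% ± 2.34 in induced wild type over all 18 arms, and 12.6% ± 5.36 against 43.7% ± 2.14 when arms with the same reads were counted once (SD, n = 3 each). The log2 ratio to miR-292a averaged -2.47 in KO and -0.18 in induced wild type, a difference of -2.29, and the 6 differences ran from -2.29 (miR-292a) to -5.92 (miR-291b). KO and wild type did not overlap in the share or in any of the 6 ratios. Each gave p = 0.1 in a two-sided exact permutation test, the smallest p that 3 libraries against 3 allow, and 0.1 after adjustment over the 6 hairpins, so none could pass 0.05. The induced wild-type libraries are among those on which miR-293 was selected, so its high place there was favoured by the choice. KO sums were small, from 19 to 66 counts of miR-293 per library. In KO replicates 1, 2 and 3 miR-290a-5p had 6, 0 and 4 counts and miR-290a-3p 2, 0 and 0. In the same order miR-291b-5p had 4, 10 and 7, miR-291b-3p 0, 0 and 2, and miR-294-3p 5, 11 and 14. The ratios to these hairpins therefore rest on few counts and on the added count, while miR-292a-5p had 190, 148 and 476. Leaving out any 1 library gave log2 changes from -11.74 (without E518K clone 15) to -9.91 (without KO replicate 2) for miR-293-5p and from -11.73 (without KO replicate 1) to -9.42 (without KO replicate 2) for miR-293-3p.

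Both arms were nevertheless well above KO in induced E518K. miR-293-5p rose by 6.76 ± 0.53 on the log2 scale (10521 CPM in induced E518K, 97.7 CPM in KO, edgeR adjusted p = 1.32e-32), and miR-293-3p by 7.14 ± 0.54 (4497 CPM in induced E518K, 31.2 CPM in KO, edgeR adjusted p = 6.25e-35). All 16 neighbour arms rose too, where 41.9% of the miRNAs tested rose. Their median was 7.55, or 7.10 with miR-294-5p at its bound, beside 1.35 over all miRNAs tested. Both arms of miR-293 thus lay close to the middle of the cluster. The induced E518K libraries are among those on which miR-293 was selected as low, so its place here was not free of that choice. miR-292a-3p rose by 9.33 and miR-295-3p by 7.87, while miR-295-5p rose by 3.49. The share of miR-293 in the cluster's counts was 7.80% ± 0.876 in induced E518K and 12.6% ± 5.36 in KO with same reads counted once (SD, n = 3 each), with the nearest libraries at 8.43% in E518K and 8.76% in KO. That difference was not tested. Leaving out any 1 library gave changes from 5.70 (without KO replicate 2) to 7.46 (without E518K clone 15) for miR-293-5p and from 5.87 (without KO replicate 2) to 8.24 (without KO replicate 1) for miR-293-3p.

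**Figure D3:**
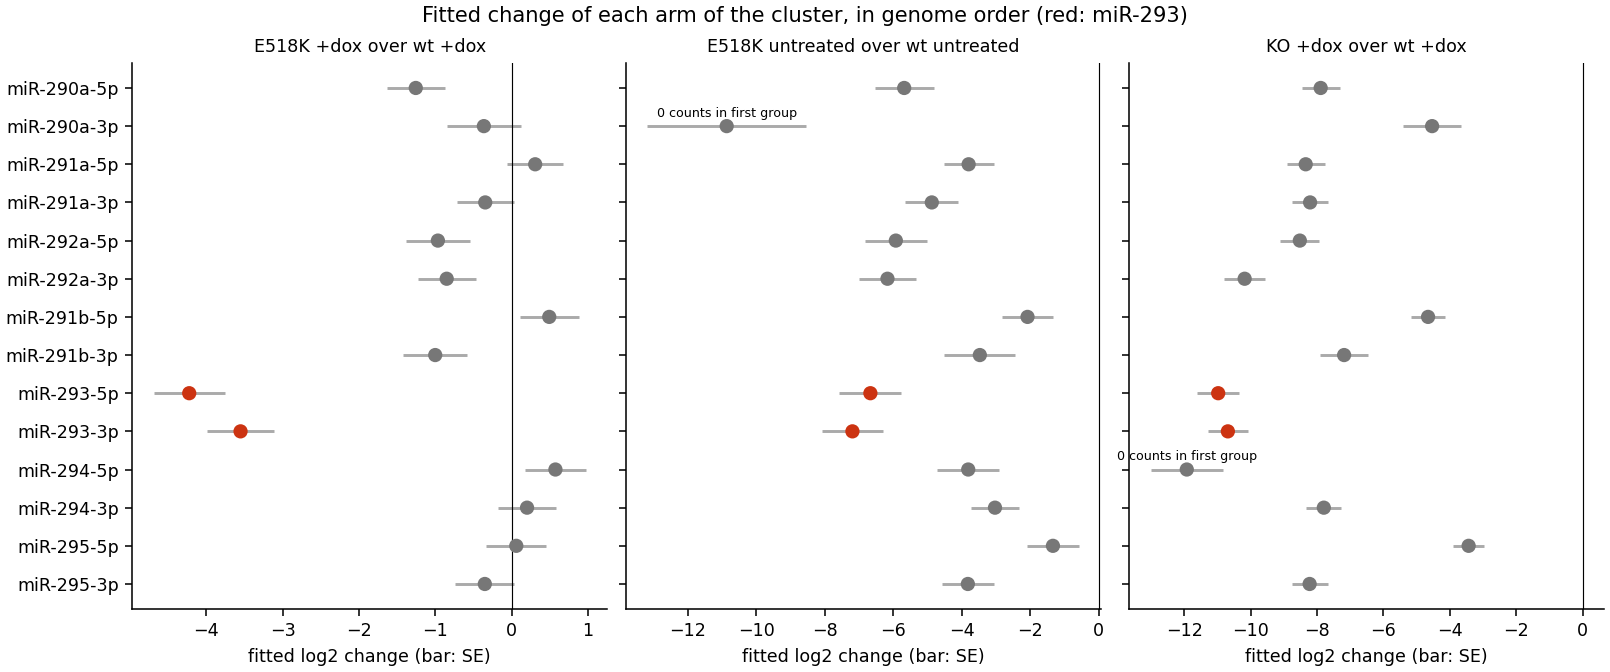
Fitted log2 change of each arm of the cluster in genome order, with bars of 1 SE, for induced E518K over induced wild type (left), untreated E518K over untreated wild type (middle) and KO over induced wild type (right); the axes differ between panels. The antisense arms of miR-290b and miR-292b are left out, and an arm at 0 counts in a group is marked. On the left miR-293 lies at -4.23 and -3.55 and the lowest neighbour at -1.26. In the middle its arms lie at -6.67 and -7.19, and the lowest neighbour shown with counts, miR-292a-3p, at -6.17. On the right the arms of miR-293 lie at -10.98 and -10.69, against -10.18 for miR-292a-3p. Only neighbours at 0 counts in a group lie lower, miR-290a-3p in the middle and miR-294-5p on the right. Their fitted values have no bound.

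Without doxycycline, the comparison of E518K with wild type uses libraries that played no part in choosing miR-293, although they come from clones 8 and 10, whose induced libraries did. miR-293-5p was at 512 CPM in untreated E518K and 52010 CPM in untreated wild type, a log2 change of -6.67 ± 0.90 (edgeR, adjusted p = 3.61e-11). miR-293-3p was at 184 CPM in untreated E518K and 26957 CPM in untreated wild type, a change of -7.19 ± 0.90 (edgeR, adjusted p = 1.36e-12). Here 15 of the 16 neighbour arms fell, where 27.9% of the miRNAs tested fell. The change was -6.17 for miR-292a-3p, -5.92 for miR-292a-5p and -3.82 for miR-295-3p, while miR-295-5p, at -1.33, did not pass (edgeR, adjusted p = 0.142). The neighbours' median was -5.28, or -3.81 with miR-290a-3p and its antisense partner, at 0 in untreated E518K, set at their bound, beside -0.68 over all miRNAs tested. As a share of the cluster with same reads counted once, miR-293 held 5.77% in untreated E518K (95% exact interval 4.79% to 6.95%) and 11.9% in untreated wild type (11.8% to 12.0%), against 7.80% in induced E518K and 43.7% in induced wild type. Each untreated group is 1 library, which the fit assumes to vary like the other groups, and the intervals cover counting error only. With 1 clone on each side, E518K cannot be told apart here from the clone or from unequal leak of the vectors. The neighbours' median was -5.28 in this comparison and -0.37 between the induced groups.

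Both untreated vector libraries held more miR-293 than KO, by unequal amounts. In untreated wild type miR-293-5p was higher than in KO by 9.06 ± 0.61 on the log2 scale (52010 CPM in untreated wild type, 97.7 CPM in KO, edgeR adjusted p = 6.60e-42) and miR-293-3p by 9.72 ± 0.62 (26957 CPM in untreated wild type, 31.2 CPM in KO, edgeR adjusted p = 3.44e-46). All 16 neighbour arms were higher as well, where 43.3% of the miRNAs tested were, with a median of 7.60, or 7.38 with miR-294-5p at its bound. In untreated E518K miR-293-5p was higher than in KO by 2.39 ± 0.56 (512 CPM in untreated E518K, 97.7 CPM in KO, edgeR adjusted p = 0.000268) and miR-293-3p by 2.53 ± 0.61 (184 CPM in untreated E518K, 31.2 CPM in KO, edgeR adjusted p = 0.000381). Of the neighbours 10 of 16 were higher and 6 did not pass, where 15.2% of the miRNAs tested were higher. Among those that passed, miR-294-3p was higher by 4.79, miR-291a-3p by 4.50 and miR-292a-5p by 3.52. These comparisons share the KO libraries. KO cells received doxycycline and were not transfected, so leak of a vector cannot be told apart from doxycycline, transfection or clone. The 2 E518K calls were lost when E518K clone 8, KO replicate 2 or wild-type clone 16 was left out, with changes from 1.32 to 3.31 for miR-293-5p and from 1.23 to 3.60 for miR-293-3p over all libraries left out, and the call of miR-293-3p was also lost without KO replicate 3 or wild-type clone 12. Untreated wild type over KO ran from 7.51 to 9.36 for miR-293-5p and from 7.93 to 10.31 for miR-293-3p, lowest without KO replicate 2 for both.

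In induced over untreated wild type miR-293-5p rose by 1.92 ± 0.65 (196809 CPM in 3 induced libraries, 52010 CPM in 1 untreated library, edgeR adjusted p = 0.0131). miR-293-3p was at 52784 CPM in induced and 26957 CPM in untreated wild type, a change of 0.97 ± 0.59 that did not pass (edgeR, adjusted p = 0.191). The induced libraries are among those on which miR-293 was selected, which favours a rise here. With clone as a block, added after seeing the data, the change of miR-293-5p was 2.00 and did not pass (edgeR, adjusted p = 0.138), and that of miR-293-3p was 0.95 (edgeR, adjusted p = 0.484). The blocked change rests on the pair of clone 10, with a spread taken from the KO libraries. Without the block, none of the 16 neighbour arms was higher and 2 were lower, namely miR-290a-3p and the antisense miR-290b-5p that holds the same reads, where 15.9% of the miRNAs tested were higher and 18.9% lower. Their median was -0.08, beside 0.39 over all miRNAs tested. With the block no neighbour arm was called in either direction, and edgeR called 10 miRNAs higher and 25 lower (165 at an unadjusted p below 0.05), against 116 and 138 without it. Scaling decided the neighbours' direction here: by total counts no neighbour arm was called, and by the list of miRNAs made without DGCR8 14 were higher and none lower, with a median of 3.12. Over the alternatives the change of miR-293-5p was between 1.68 and 5.11 and passed under each one with a test other than the block, and that of miR-293-3p was between 0.73 and 4.16, passing under some and not under others.

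Within wild-type clone 10, the same contrast could be read from 1 library each. miR-293-5p had 207923 CPM with doxycycline and 52010 CPM without, a ratio of 4.0. For miR-293-3p the ratio was 1.93, from 51932 CPM with doxycycline and 26957 CPM without. Among the 18 arms of the cluster these were the highest and the second highest ratios. miR-291b-3p followed at 1.91, then miR-295-5p at 1.73, whereas miR-292a-5p stood at 0.606 and miR-291a-3p at 0.382. This order within the clone does not depend on scaling, but it has no replicate check, and the induced library of clone 10 is 1 of those on which miR-293 was selected.

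In E518K, both arms and their neighbours rose with induction. miR-293-5p rose by 4.36 ± 0.77 (10521 CPM in induced, 512 CPM in untreated E518K, edgeR adjusted p = 1.84e-07) and miR-293-3p by 4.61 ± 0.76 (4497 CPM in induced, 184 CPM in untreated E518K, edgeR adjusted p = 2.94e-08). All 16 neighbour arms rose, where 28.4% of the miRNAs tested rose, with a median of 4.20, or 3.99 with miR-290a-3p and miR-290b-5p at their bound, beside 1.14 over all miRNAs tested. With clone as a block both arms of miR-293 still passed, at 4.51 and 4.66 (edgeR, adjusted p = 0.00284 and 0.00297), and 12 of the 16 neighbour arms rose, among 108 miRNAs higher and 87 lower, against 207 and 178 without the block. In clone 8 alone the log2 ratio of CPM was 4.51 for miR-293-5p and 4.66 for miR-293-3p. It ran from 2.30 (miR-295-5p) to 5.19 (miR-290a-5p) among the neighbours with counts in both libraries, and miR-292a-5p had 4.01. Without wild-type clone 16, which changes the scaling, the induced over untreated change was 5.69 for miR-293-5p and 5.95 for miR-293-3p. The induced E518K libraries are among those on which miR-293 was selected as low, which works against a rise here. Whether induction moved miR-293 differently in E518K and in wild type was not tested.

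**Figure D4:**
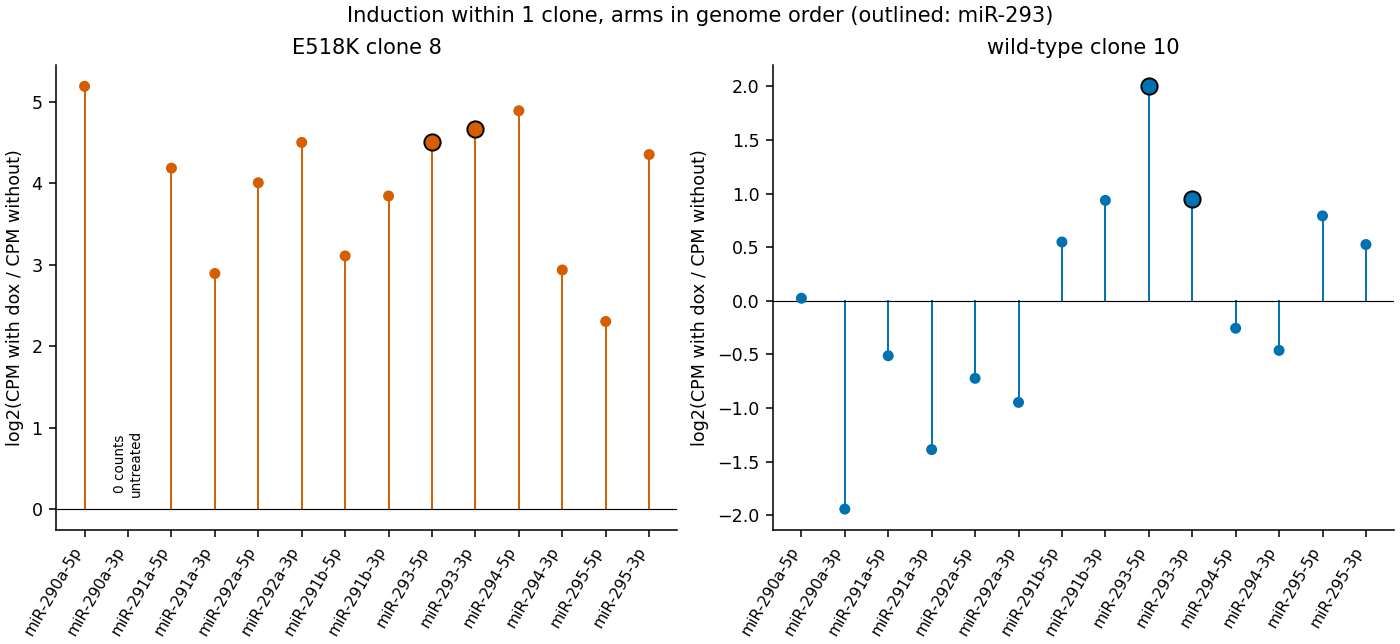
Log2 ratio of CPM with doxycycline over CPM without, within E518K clone 8 (left) and wild-type clone 10 (right), for each arm of the cluster in genome order, 1 library per value; the axes differ between panels. In clone 10 the outlined miR-293 arms are the highest, at 2.00 and 0.95, with miR-291b-3p just below at 0.94. In clone 8 they lie inside the range of the neighbours, and miR-290a-3p has no value because it was at 0 without doxycycline.

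The balance of the 2 arms differed less between groups than their level. The count ratio of miR-293-5p to miR-293-3p was 2.49, 2.44 and 2.16 in induced E518K clones 8, 13 and 15, 2.78 in untreated E518K, 1.86, 8.50 and 3.71 in KO, 4.0, 4.18 and 2.81 in induced wild type, and 1.93 in untreated wild type. Induced E518K lay below induced wild type without overlap, but untreated wild type was lower still. As a share, the 5p arm made up 70.2% ± 1.64 of both arms in induced E518K, 77.8% ± 12.3 in KO and 78.2% ± 3.83 in induced wild type (SD, n = 3 each). It was 73.5% in untreated E518K (95% exact interval 64.1% to 81.4%) and 65.9% in untreated wild type (65.3% to 66.4%). The log2 arm ratio averaged 1.96 in KO and 1.85 in induced wild type (two-sided exact permutation test, p = 1.0, where 3 libraries against 3 allow no p below 0.1), so that no difference of any size could have passed 0.05, and the sign of that difference turned without KO replicate 2 or without wild-type clone 16. Between induced E518K and induced wild type the mean log2 arm ratio of miR-293 differed by -0.62, inside the span of the neighbours, from -0.83 for miR-290a to 1.47 for miR-291b. Only miR-290a was lower, and its 3p arm had 41, 31 and 46 counts in induced E518K clones 8, 13 and 15. The other neighbours ran from -0.11 (miR-292a) upwards.

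**Figure D5:**
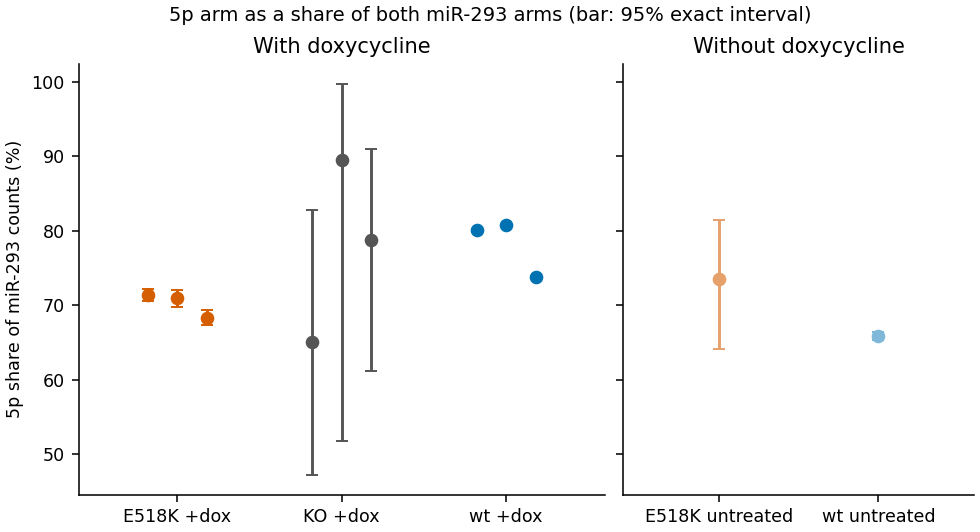
Share of the 5p arm in the summed counts of both miR-293 arms, in percent, for each of the 11 libraries, with 95% exact binomial intervals taken on counts divided by 2; the axis does not start at 0. Induced E518K libraries lie between 68.3% and 71.4%, induced wild-type libraries between 73.7% and 80.7%, and the KO intervals span most of the axis.

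The miRNAs outside the cluster whose levels ran most like miR-293 were found among 219 miRNAs with at least 100 CPM in induced wild type, by Pearson's r of log2(CPM + 1) over the 11 libraries. For miR-293-5p they were miR-323-3p (r = 0.991), miR-411-5p (0.987), miR-382-3p (0.986), miR-669l-5p (0.983) and miR-30c-5p (0.982). For miR-293-3p they were miR-323-3p (0.986), miR-382-3p (0.982), miR-30c-5p (0.981), miR-200b-3p (0.980) and miR-411-5p (0.979). The arms had r = 0.992 with each other, and their neighbours had 0.873 to 0.953 with miR-293-5p and 0.871 to 0.976 with miR-293-3p. miR-323, miR-411 and miR-382 belong to the imprinted Dlk1-Dio3 region of another chromosome, and miR-323-3p had 232, 106 and 178 CPM in induced E518K, 6.36 CPM (2 counts) in untreated E518K, 0 in KO, 1837, 1236 and 1748 CPM in induced wild type and 490 CPM in untreated wild type. The fitted difference of these 6 miRNAs between induced E518K and induced wild type ran from -3.80 (miR-411-5p) to -2.07 (miR-30c-5p), a direction that the choice by likeness over these libraries fixes. These r values are descriptions: the points share libraries, depth and scaling, and the group levels alone span most of the range.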

How the data were processed

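Counts of 1966 mature miRNAs in 11 libraries were used as the authors deposited them, not normalized per the file headers. A second deposited table gives the same miRNAs in a scaled RPM unit that the file headers call pRPM. Once each library was rescaled to its total of counts, 100% of the values were whole reads within 0.01 and 100% equalled the counts. The count test on these recovered reads therefore had to call as many miRNAs in each direction (219 higher and 426 lower in KO over induced wild type). It is no separate check. A deposited file named for piRNAs was byte for byte the pRPM table and was not used. STAR, bedtools and the build GRCm38.p6 are named in the submitters' processing notes; trimming, strand and counting rule were not given in the sources used here. Small RNA libraries were made from total RNA with the NEBNext Multiplex kit, per the labels' protocols.

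edgeR 4.0.16 (R 4.3.3) fitted all 11 libraries in 5 groups (robust quasi-likelihood, TMM scaling, filterByExpr with minimum count 10 and total 15, 730 miRNAs tested), with Benjamini-Hochberg adjustment over the 730 and a threshold of 0.05. A count of 0 was bounded by a floor of 6 counts per library, 3 small RNAs if each was counted 2 times. miRNAs whose counts differed by at most 2% over all libraries were taken as holding the same reads. Intervals are exact (Clopper-Pearson, 95%) on counts divided by 2, which widens them where reads were counted once, and cover counting error alone, since reads are not independent molecules. The labels give clone 10 and clone 8 both with and without doxycycline, which pairs those libraries; a fit with clone as a block has 2 residual degrees of freedom, both from the KO libraries. The fits were tested on simulated counts in which rises and falls were equally likely. That check does not cover a shift mainly in 1 direction, as in KO over induced wild type. DESeq2 1.42.0 was an alternative, and hairpins were folded with RNAfold 2.7.2. Replicates of a group differed beyond counting noise (chi-square of 24.3 to 557 per degree of freedom). No label gives separate cultures for the KO libraries, so p-values measure the spread between these samples, which may be technical.

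Named miRNAs are the 2 members, the 18 arms of the cluster and the 5 miRNAs most like each member. The members and lists were chosen with earlier results of these data known.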

Additional observations from a re-analysis of the deposited data

How the results depend on the processing

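The alternatives were other scalings (total counts, DESeq2 size factors, the authors' pRPM totals, a list of miRNAs made without DGCR8, TMM without the cluster), no filter, same reads merged, DESeq2, a fit of the groups compared alone, single clones and each library left out; the count test on reads recovered from pRPM and the block by clone were added after seeing the data. Of these values 352 kept direction and call or stayed within the replicate spread, 9 moved beyond it, 7 newly passed, 15 no longer passed and 2 reversed. The cause of the changes was not tested. Values from recovered reads could only stay the same, as these reads equal the counts. Apart from libraries left out, induced E518K over KO ran from 5.52 to 9.21 for miR-293-5p and from 5.86 to 9.50 for miR-293-3p. Untreated wild type over KO ran from 6.98 to 11.09 and from 7.61 to 11.66, in the same order of arms. Untreated E518K over untreated wild type ran from -9.55 to -5.36 and from -10.07 to -5.89. For untreated E518K over KO, miR-293-5p did not pass with DESeq2 size factors (1.66, adjusted p = 0.103) or list scaling (1.54, adjusted p = 0.0852), and miR-293-3p did not pass with size factors (1.72), list scaling (1.59), DESeq2 (1.71) or the compared groups alone (1.74), with adjusted p from 0.0692 to 0.18. Leaving out 1 library gave 1.32 to 3.31 for miR-293-5p and 1.23 to 3.60 for miR-293-3p. For induced over untreated wild type, miR-293-3p passed with total counts (1.43), pRPM totals (1.88), list scaling (4.16), same reads merged (1.44) and DESeq2 (1.67), and ran from 1.13 to 1.55 with 1 library left out, passing without KO replicate 1 or E518K clone 13. For induced E518K over induced wild type, list scaling moved miR-293-5p to -6.99 and miR-293-3p to -6.32, and leaving out 1 library gave -3.68 to -2.89 for miR-293-3p. Of 16 neighbour arms, 7 were called lower there, against 0 with total counts, 2 with TMM without the cluster, 2 of 12 with same reads merged, 16 with list scaling and 0 to 5 with 1 library left out. For induced over untreated wild type, 116 miRNAs were higher and 138 lower, against 483 and 12 with list scaling. The share of miR-293 in the cluster became 7.80% in induced E518K, 12.6% in KO and 43.7% in induced wild type, both with same reads counted once and without miR-290b and miR-292b. The log2 arm ratio in KO minus wild type turned from 0.11 to -0.46 without KO replicate 2 and to -0.07 without wild-type clone 16, and ran from -0.46 to 0.64. Clones 8 and 10 pair induced with untreated libraries: with clone as a replicate block, miR-293-5p in induced over untreated wild type no longer passed (2.00, adjusted p = 0.138), and the calls of both arms in induced over untreated E518K held (4.51 and 4.66). No paired analysis was possible because of the lack of a shared clone in the other comparisons. The fit of the compared groups alone was not run for the untreated pair, which has 1 library each. Depth limits the KO values, with 19 to 66 counts of miR-293 per library.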
